A study of Mus musculus with 8 samples.

Results

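The integrated stress response and amino acid genes are 35 genes of mouse bone marrow-derived macrophages (BMDM), taken by symbol from a written list of the ATF4 pathway, serine and one-carbon enzymes, amino acid carriers and tRNA synthetases. They were all among the 55357 genes of the deposited count table, and 34 of them were among the 14514 genes with enough counts to be tested, the exception being Chac1. BMDM were grown in macrophage-colony stimulating factor from the marrow of wild-type C57BL/6J mice. The cells then received either 2 μM of sphingosine d18:1 [So(d18:1)] dissolved in methanol or methanol alone for 6 h. RNA carrying poly(A) was sequenced from 4 So(d18:1) and 4 control libraries. The labels mention no inflammatory stimulus for these cells, while the study's text speaks of one. The labels also do not say whether the 4 libraries of a group came from separate mice or cultures, so that p-values measure the spread between these libraries.

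The integrated stress response starts with kinases that sense stress, such as PERK at the endoplasmic reticulum and GCN2 on uncharged tRNA, and that phosphorylate the initiation factor eIF2. General translation then falls, whereas the mRNA of ATF4 is translated more. ATF4 pairs with C/EBP factors on DNA and raises genes for amino acid uptake, amino acid synthesis and tRNA charging, together with inhibitors of growth signalling. Macrophages draw on the same genes when amino acids are short or when protein secretion loads the endoplasmic reticulum. Much of the control of ATF4 lies in translation, which counts of mRNA do not measure.

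ATF4 and its partners bind a composite element that was searched here as TGATGNAA, N being any base, on both strands. Promoter windows of 300 bases, of which 250 lie before the start site of the gene, were taken from RefSeq on GRCm38.p6 and were given for 31 of the 35 genes. The element was present in 9 of the 31 (29%), against 1219 of all 27025 genes with a window (4.51%). The list was written from the ATF4 pathway, so a larger share could be foreseen from its choice. The 27025 genes were not limited to those tested here. Among the 9 were Asns, Atf3, Chac1, Gars, Nupr1, Pycr1, Trib3 and Vldlr. The element of Trib3 lay after the start site. Stretches of 38 bases around the elements that lay before the start site are shown for 7 genes, read 5′ to 3′ along the strand of the gene, with the element in capitals. Where the capitals end in CATCA, the element is on the opposite strand.
Asns, chr6:7693210-7693247, strand -: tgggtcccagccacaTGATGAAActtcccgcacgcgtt
Gars, chr6:55037956-55037993, strand +: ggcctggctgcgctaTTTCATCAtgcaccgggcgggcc
Pycr1, chr11:120643829-120643866, strand -: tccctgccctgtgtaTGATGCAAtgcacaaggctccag
Atf3, chr1:191183421-191183458, strand -: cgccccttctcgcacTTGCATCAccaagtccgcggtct
Nupr1, chr7:126625558-126625595, strand -: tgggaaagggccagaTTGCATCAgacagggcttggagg
Chac1, chr2:119351034-119351071, strand +: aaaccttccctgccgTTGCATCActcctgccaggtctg
Vldlr, chr19:27216805-27216842, strand +: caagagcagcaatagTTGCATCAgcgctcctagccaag
The elements shown began between 23 bases (Asns) and 200 bases (Vldlr) before the start site. Of the 9 genes with an element, 8 were tested, with 4 higher and 4 lower in So(d18:1) libraries, and none passed the test described next. Their median log2 fold change was -0.03, and that of the 22 genes with a window and no element was 0.05. A match to these letters is a description of the window and not a site of binding. Stretches outside the windows were not searched, so a gene whose window held no match may still carry the element elsewhere.

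Total counts were between 17748397 and 26088609 per library. Levels are given as CPM, the counts of a gene relative to the library total after TMM scaling, whose factors lay between 0.989 and 1.01, and groups were compared by edgeR's quasi-likelihood test with Benjamini-Hochberg adjustment over all 14514 genes. A gene was said to rise or fall at an adjusted p under 0.05. Macrophage markers were abundant, with a summed level of 30120 to 32410 CPM in control and 26010 to 30870 CPM in So(d18:1) libraries, although Cd68 and Mertk fell and Itgam rose. Markers of T cells and erythroid cells reached at most 5 and 14 counts in any library, and those of B cells summed to at most 4.01 CPM, those of dendritic cells to 6.67 CPM and those of fibroblasts to 10.3 CPM. B cell markers were lower with So(d18:1) in 3 of 3 genes, of which 0 passed the test. Their sum was 2.63 to 4.01 CPM in control against 0.905 to 2.47 CPM. Neutrophil and precursor markers were lower with So(d18:1) in 7 of 7 genes, of which S100a8, S100a9, Elane and Mpo fell (1 to 5 of the 7 with a library left out), and their summed level was 1416 to 1952 CPM in control against 1113 to 1267 CPM. The part of these other cells in the values below was not tested. In bulk RNA, fewer cells of a type and less RNA per cell cannot be told apart.

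Of the 34 genes tested, 4 rose and 1 fell with So(d18:1). Ddit4, an inhibitor of mTORC1 signalling, rose most, while the amino acid carrier Slc38a2, the serine enzyme Psat1 and the translation repressor Eif4ebp1 rose by less. Slc3a2, the heavy chain shared by several amino acid carriers, fell. The 5 genes are 14.7% of those tested, against 8.94% of all genes. That difference depended on the libraries kept. Without control replicate 4 the shares were 5.88% (2 genes) against 5.96%, and without So(d18:1) replicate 2 they were 5.88% (2 genes) against 5.49%. In these 2 fits both genes rose, while 362 of 14638 and 360 of 14848 of all genes rose. Without So(d18:1) replicate 4 the shares were 8.82% (3 genes) against 6.14%. With any other library left out they were 11.8% (4 genes) against 6.74% to 9.37%. With all 8 libraries, the share in the upward direction was 11.8% against 3.87%, and in the downward direction 2.94% against 5.07%. The genes that encode ATF4, ATF3, CHOP, asparagine synthetase and the 5 tRNA synthetases did not pass the test. Across the 34 genes the median log2 fold change was 0.05, with 21 genes higher and 13 lower, while the median of all genes tested was 0.0036. In size, the median absolute log2 fold change of 0.115 was close to the 0.11 of all genes tested.

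**Figure D1:**
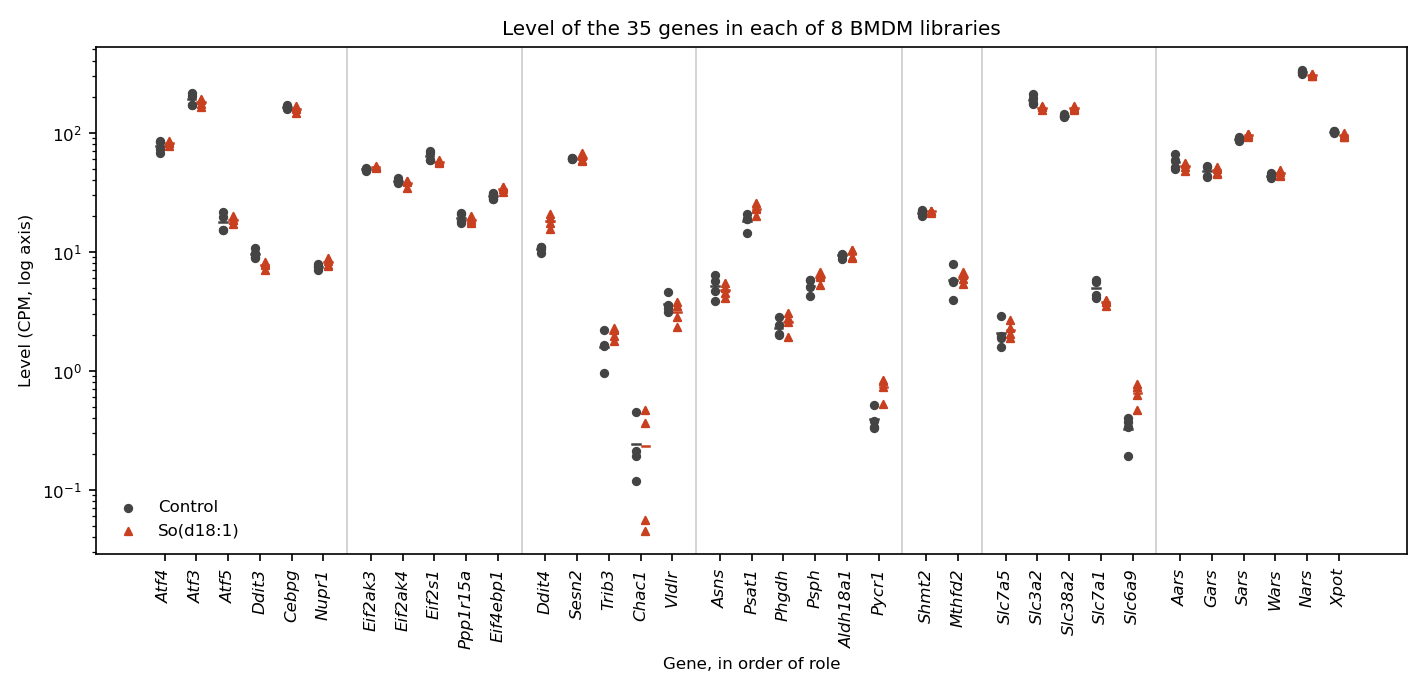
Level of each of the 35 genes in the 8 libraries, in CPM on a log axis, with circles for control and triangles for So(d18:1) libraries, a short line at each group mean and grey lines between roles. Levels run from below 0.1 CPM (Chac1) to above 300 CPM (Nars), and the groups stand visibly apart for Ddit4. CPM are not divided by length here, so heights compare libraries and not genes.

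Per kilobase of transcript, the most abundant of the listed genes in control libraries was Atf3 at 88.8 CPM per kb. It was followed by Nars at 74.6, Slc3a2 at 53.7 and Atf4 at 32.9 CPM per kb. The least abundant were Chac1 at 0.149, Pycr1 at 0.0994 and Slc6a9 at 0.0632 CPM per kb. Transcripts of the stress-induced factors Atf3 and Atf4 thus ranked high among the listed genes in control libraries. The labels mention no inflammatory stimulus, while the study's text speaks of one. Whether these levels are those of unstimulated BMDM is therefore not known.

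Among the transcription factors, 0 of 6 passed the test. Atf4, the central factor of the response (chr15:80255184-80257541 on GRCm38), was at 73.5, 67.5, 85.4 and 83.5 CPM in control replicates 1 to 4 and at 84.7, 81.2, 76.7 and 82 CPM in the So(d18:1) replicates. The So(d18:1) libraries lay within the control range, which was wide because replicates 1 and 2 were low and replicates 3 and 4 high. The log2 fold change of Atf4 was 0.07 (95% interval -0.07 to 0.20, edgeR adjusted p = 0.58). Atf3, a stress-induced factor of the same family, spanned 171.9 to 217.3 CPM in control and 163.3 to 193.6 CPM in So(d18:1) libraries, which gave a log2 fold change of -0.09 (95% interval -0.27 to 0.09, edgeR adjusted p = 0.57). Atf5, a further factor translated under stress, had a log2 fold change of 0.05 (95% interval -0.17 to 0.27).

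Ddit3 encodes CHOP, the factor linked to cell death under lasting stress. It was at 8.95, 8.88, 9.74 and 10.7 CPM in control and at 8.13, 7.92, 7.03 and 7.8 CPM in So(d18:1) libraries. Every So(d18:1) library lay below every control library, yet the gene missed the threshold. The log2 fold change of Ddit3 was -0.31, with a standard error (SE) of 0.104 and an edgeR adjusted p of 0.0708. An exon of Mars on the opposite strand overlaps 3.97% of the exons of Ddit3. Cebpg, a C/EBP partner of ATF4, and Nupr1, a small stress-induced chromatin protein, had log2 fold changes of -0.05 and 0.12 with overlapping groups.

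Among the kinases and translation factors, 1 of 5 rose. Eif4ebp1 encodes 4E-BP1, which holds back the cap-binding factor eIF4E unless mTORC1 phosphorylates it (chr8:27260329-27276674). Its level was 28, 27.7, 31 and 30.8 CPM in control and 34.9, 34.7, 31.8 and 33.7 CPM in So(d18:1) libraries. The groups did not overlap, but So(d18:1) replicate 3 came within 1 CPM of the highest control library. Eif4ebp1 had a log2 fold change of 0.20 (SE 0.0623, edgeR adjusted p = 0.0467), close to the threshold. The call held without control replicate 3 or without So(d18:1) replicate 3 and was lost with each of the other 6 libraries left out, where the edgeR adjusted p was between 0.0577 and 0.128.

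Eif2ak3, which encodes PERK, was at 47.5 to 50.8 CPM in control and 51 to 52.3 CPM in So(d18:1) libraries, groups that did not overlap but nearly met. Its log2 fold change was 0.07 (95% interval -0.03 to 0.17, edgeR adjusted p = 0.408). Gm43292 overlaps 8.05% of the exons of Eif2ak3 on the opposite strand. Eif2ak4, which encodes GCN2, had a log2 fold change of -0.05 (95% interval -0.18 to 0.07). Eif2s1, the eIF2 subunit that the kinases phosphorylate, was at 59.2, 58.6, 69.6 and 67.5 CPM in control and at 55.5, 56.9, 56.5 and 59.1 CPM in So(d18:1) libraries. The highest So(d18:1) library exceeded only control replicate 2. The log2 fold change was -0.16 (SE 0.0581, edgeR adjusted p = 0.0927), and Eif2s1 passed the threshold without control replicate 2 (-0.20, edgeR adjusted p = 0.034). Ppp1r15a, whose product GADD34 brings a phosphatase to eIF2, had a log2 fold change of -0.06 (95% interval -0.22 to 0.11).

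Among the stress effectors, 1 of 4 tested genes rose. Ddit4, also called REDD1, lies on chr10:59949669-59951834. Its level was 10.5, 11, 9.82 and 11 CPM in control and 15.4, 17.3, 20.9 and 19.3 CPM in So(d18:1) libraries. The lowest So(d18:1) library stood well above the highest control library. The level of Ddit4 rose 1.72-fold (95% interval 1.5 to 1.98), a log2 fold change of 0.78 (SE 0.096, edgeR adjusted p = 1.34e-05). None of its 50-base words occurred in another gene.

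Sesn2, a leucine-binding inhibitor of mTORC1 that stress also induces, was at 59.6 to 61.3 CPM in control and 57.7 to 66.9 CPM in So(d18:1) libraries, which gave a log2 fold change of 0.03 (95% interval -0.08 to 0.14). Trib3, a pseudokinase that restrains AKT and ATF4, was counted 24 to 52 times in a library and had a log2 fold change of 0.37 (95% interval -0.12 to 0.85, edgeR adjusted p = 0.365). Vldlr, a lipoprotein receptor among the targets of ATF4, had -0.24 (95% interval -0.61 to 0.13). Chac1, which degrades glutathione, was counted 4, 3, 5 and 11 times in control and 1, 1, 7 and 12 times in So(d18:1) libraries. That depth was too low for a test, and the groups overlapped throughout.

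Ddit4 is one of the 4 genes that passed the test and had a promoter window, together with Slc38a2, Slc3a2 and Psat1, and none of their windows held TGATGNAA. The rest of these genes was not searched for it. The 250 bases before each RefSeq start site are given because these genes passed the test, as did Eif4ebp1, which had no window. The spans given for genes are from GENCODE and can begin farther upstream. The windows of Slc3a2 and Psat1 lie inside these spans, and those of Ddit4 and Slc38a2 overlap them in part. Capitals mark ACGTG, a form of the core that HIF and other factors of the same structural family bind. CACGT, the same form on the other strand, is also in capitals. Other forms, such as GCGTG, were not searched. Psat1 had a second window, and the one farther upstream is given.
Ddit4, chr10:59951771-59952020, strand -: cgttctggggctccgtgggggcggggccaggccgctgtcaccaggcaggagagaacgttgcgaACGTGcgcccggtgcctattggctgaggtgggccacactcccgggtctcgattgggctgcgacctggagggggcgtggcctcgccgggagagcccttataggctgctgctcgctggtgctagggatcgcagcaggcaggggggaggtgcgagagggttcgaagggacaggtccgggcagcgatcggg
Slc38a2, chr15:96699729-96699978, strand -: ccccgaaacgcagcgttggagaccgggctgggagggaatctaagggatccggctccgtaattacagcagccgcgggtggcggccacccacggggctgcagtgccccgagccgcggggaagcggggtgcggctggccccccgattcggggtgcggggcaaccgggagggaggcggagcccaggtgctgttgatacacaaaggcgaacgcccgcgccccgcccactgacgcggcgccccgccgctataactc
Slc3a2, chr19:8713898-8714147, strand -: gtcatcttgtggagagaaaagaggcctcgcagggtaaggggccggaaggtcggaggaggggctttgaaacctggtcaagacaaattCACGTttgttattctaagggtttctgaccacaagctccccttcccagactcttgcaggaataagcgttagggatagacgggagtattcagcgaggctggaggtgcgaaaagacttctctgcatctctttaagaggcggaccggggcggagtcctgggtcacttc
Psat1, chr19:15925060-15925309, strand -: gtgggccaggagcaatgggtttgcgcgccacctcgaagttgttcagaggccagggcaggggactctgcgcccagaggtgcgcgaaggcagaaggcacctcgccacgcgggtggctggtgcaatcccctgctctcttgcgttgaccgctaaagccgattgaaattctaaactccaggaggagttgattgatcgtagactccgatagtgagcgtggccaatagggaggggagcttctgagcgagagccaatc
The form searched was found in the window of Ddit4, beginning 187 bases before the start site, and in that of Slc3a2, 164 bases before it. This form was not found in the windows of Slc38a2 and Psat1, which were not searched for GCGTG. Of the 31 genes with a window, 11 held the form searched (35.5%), against 5886 of 27025 genes (21.8%). One gene that rose and another that fell therefore carried it.

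**Figure D2:**
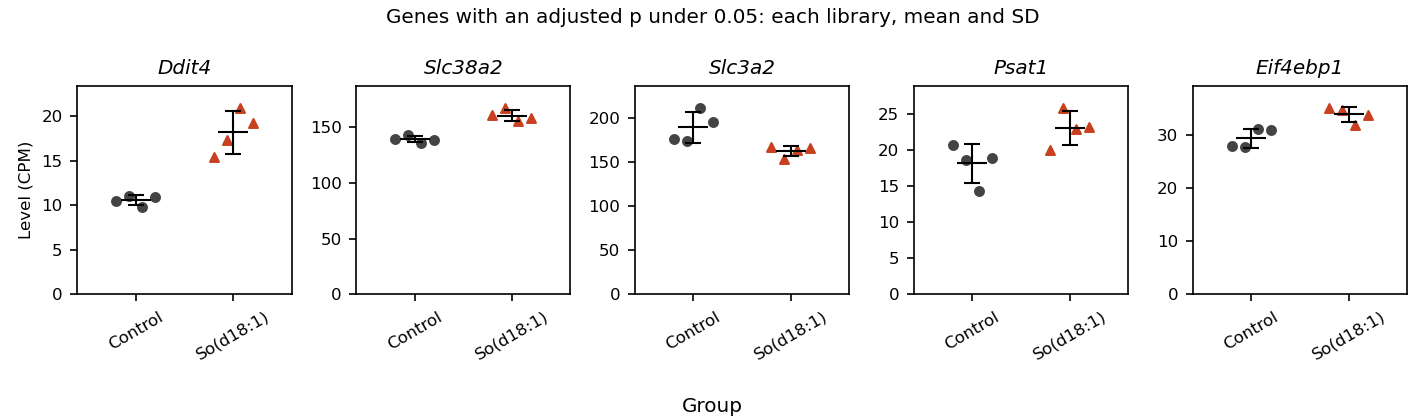
Level in CPM of the 5 genes with an adjusted p under 0.05, one panel per gene with its own axis from 0, showing each library as a point with the mean and SD of the 4 libraries per group. The groups are apart for Ddit4, Slc38a2, Slc3a2 and Eif4ebp1, while for Psat1 the lowest So(d18:1) library (20.1 CPM) lies below the highest control library (20.8 CPM).

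Amino acid synthesis was higher with So(d18:1) in 5 of 6 genes, of which Psat1 rose. Psat1, phosphoserine aminotransferase, carries out the second step of serine synthesis (chr19:15904678-15947337). It was at 20.8, 18.7, 14.4 and 18.9 CPM in control and at 20.1, 25.8, 23 and 23.2 CPM in So(d18:1) libraries. Most So(d18:1) libraries were above all control libraries, but replicate 1 was not. The log2 fold change of Psat1 was 0.35 (SE 0.1, edgeR adjusted p = 0.0391). The call held without control replicate 1 or without So(d18:1) replicate 1 and was lost with each of the other 6 libraries left out (edgeR adjusted p between 0.0591 and 0.131), the log2 fold change being lowest at 0.25 without control replicate 3.

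The neighbouring steps of the serine pathway did not pass. Phgdh, which begins it, had a log2 fold change of 0.17 (95% interval -0.23 to 0.57) on levels of 1.93 to 3.07 CPM, and 47.8% of its transcript occurs in other genes, mainly Gm7901, so that its count is uncertain. Psph, which completes it, had 0.23 (95% interval -0.05 to 0.51, edgeR adjusted p = 0.323), and 10.4% of its exons overlap Cct6a on the opposite strand. Asns, asparagine synthetase, was at 4.72, 3.82, 5.65 and 6.31 CPM in control and at 4.94, 5.43, 4.06 and 4.5 CPM in So(d18:1) libraries. The groups were interleaved, with a log2 fold change for Asns of -0.11 (95% interval -0.44 to 0.21).

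Of the proline enzymes, Aldh18a1 had a log2 fold change of 0.05 (95% interval -0.16 to 0.26). Pycr1, the last step of proline synthesis, was counted 7, 13, 9 and 8 times in control and 15, 16, 10 and 21 times in So(d18:1) libraries. In CPM the groups did not overlap, at 0.33 to 0.518 against 0.521 to 0.841, but they nearly met. Pycr1 had a log2 fold change of 0.88 (SE 0.339, edgeR adjusted p = 0.116). Under the call rule of the study's methods, which asks for an unadjusted p under 0.05 and a change of 1.5-fold or more, 3 of the 34 genes passed (8.82%, against 3.89% of all genes), namely Pycr1, Slc6a9 and Ddit4.

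Shmt2 and Mthfd2, the mitochondrial enzymes that draw one-carbon units from serine, did not pass the test. Shmt2 was at 19.8 to 22.4 CPM in control and 21.1 to 22.2 CPM in So(d18:1) libraries, which gave a log2 fold change of 0.04 (95% interval -0.10 to 0.19). Mthfd2 was at 5.63, 3.9, 7.88 and 5.57 CPM in control and at 5.38, 6.38, 6.77 and 5.9 CPM in So(d18:1) libraries. The So(d18:1) libraries fell between control replicates 2 and 3, which lay far apart, and Mthfd2 had a log2 fold change of 0.09 (95% interval -0.26 to 0.44).

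Of the 5 amino acid carriers, 1 rose and 1 fell. Slc38a2 encodes SNAT2, which brings neutral amino acids such as glutamine and alanine into the cell with sodium (chr15:96687392-96699730). Its level was 138.9, 142.7, 135.8 and 138.3 CPM in control and 160.2, 166.4, 154.7 and 157.4 CPM in So(d18:1) libraries. The libraries of each group were close together and the groups were well apart. Slc38a2 rose 1.15-fold (95% interval 1.08 to 1.22), a log2 fold change of 0.20 (SE 0.0417, edgeR adjusted p = 0.0035).

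Slc3a2 encodes the heavy chain, CD98hc, that brings several light chains to the plasma membrane (chr19:8706882-8723369). Its level was 176.8, 174.2, 211 and 195.5 CPM in control and 166.7, 153.9, 163.8 and 165.5 CPM in So(d18:1) libraries. All So(d18:1) libraries lay below all control libraries, of which replicates 1 and 2 were the closer. The log2 fold change of Slc3a2 was -0.22 (SE 0.0548, edgeR adjusted p = 0.0147). The call was lost without control replicate 4 (-0.20, edgeR adjusted p = 0.0544) and without So(d18:1) replicate 2 (-0.20, edgeR adjusted p = 0.0642).

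Slc7a5, the light chain LAT1 for large neutral amino acids, was at 1.88, 1.59, 2.91 and 1.94 CPM in control and at 2.3, 1.9, 2.66 and 2.02 CPM in So(d18:1) libraries. The groups overlapped fully, with a log2 fold change of 0.08 (95% interval -0.36 to 0.52). In control libraries Slc7a5 was at 0.561 CPM per kb against 53.7 CPM per kb for its heavy chain Slc3a2. Slc7a1, the cationic amino acid carrier CAT1, was at 4.09, 4.34, 5.57 and 5.74 CPM in control and at 3.93, 3.8, 3.8 and 3.49 CPM in So(d18:1) libraries. The groups did not overlap, and the log2 fold change of Slc7a1 was -0.40 (SE 0.146, edgeR adjusted p = 0.0954). Slc6a9, the glycine carrier GLYT1, was counted 4, 10, 8 and 9 times in control and 13, 17, 9 and 16 times in So(d18:1) libraries, which gave a log2 fold change of 0.96 (SE 0.365, edgeR adjusted p = 0.108). Ccdc24 overlaps 27.8% of the exons of Slc6a9 on the opposite strand, and reads from that stretch are uncertain because the strand setting of the counting is not known.

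Of the genes for tRNA charging and export, 0 of 6 passed. Nars, asparaginyl-tRNA synthetase, was at 313.6 to 335.9 CPM in control and 299.8 to 313.3 CPM in So(d18:1) libraries, a narrow gap with a log2 fold change of -0.09 (95% interval -0.17 to -0.00051, edgeR adjusted p = 0.211). Sars, seryl-tRNA synthetase, was at 87.2, 87.6, 85 and 92.5 CPM in control and at 97, 95.7, 92.4 and 98.4 CPM in So(d18:1) libraries. One So(d18:1) library lay just under the highest control library, and Sars had a log2 fold change of 0.12 (SE 0.0447, edgeR adjusted p = 0.0949). Xpot, the carrier of tRNA out of the nucleus, had -0.10 (edgeR adjusted p = 0.153), and 14% of its transcript occurs in other genes. Aars, Gars and Wars, for alanine, glycine and tryptophan, had log2 fold changes of -0.12, 0.03 and 0.08, with 95% intervals that held 0. Exosc6 overlaps 14.3% of the exons of Aars on the same strand, so that the count of Aars is uncertain.

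**Figure D3:**
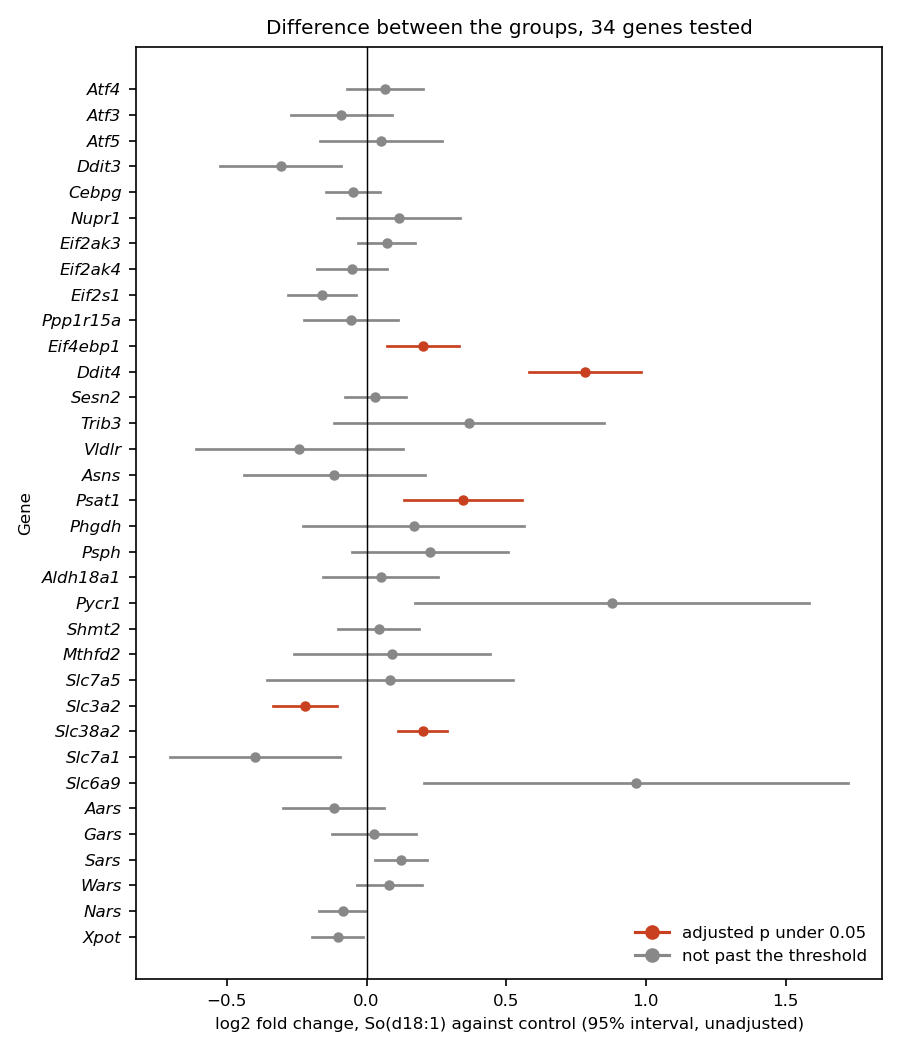
Log2 fold change of So(d18:1) against control libraries for the 34 genes tested, as points with unadjusted 95% intervals, red for an adjusted p under 0.05. Ddit4 at 0.78 stands farthest from 0 among the red points, and the intervals of Pycr1 and Slc6a9 are wide. Several grey intervals leave out 0 because they are not adjusted for the number of genes.

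Without regard to the test, the CPM of the groups did not overlap in 10 of 34 genes (29.4%), against 15% of all genes tested. These were Ddit4, Slc38a2, Eif4ebp1, Eif2ak3, Pycr1 and Slc6a9, higher with So(d18:1), and Slc3a2, Ddit3, Slc7a1 and Nars, lower. Genes of the same role stood on both sides, as with the carriers Slc38a2 and Slc3a2.

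The control libraries varied more among themselves than the So(d18:1) libraries did for these genes. The SD of log2 CPM was larger in control for 22 of 34 genes (64.7%), against 48.5% of all genes tested, with a median SD of 0.134 in control and 0.0945 in So(d18:1) libraries. Control replicate 3 was the highest of its group for 14 genes (41.2%, against 28.5% of all genes), and control replicate 2 the lowest for 17 (50%, against 27.3%). The median deviation of the genes from the mean of their group was -0.06, -0.09, 0.07 and 0.06 on the log2 scale in control replicates 1 to 4, while it lay between -0.0047 and 0.03 in So(d18:1) libraries. Over all genes tested, counts also differed less between control replicates 1 and 2 and between 3 and 4. Chi-square per gene was 2.75 and 3.76 for these pairs, against 5.68 to 12.1 for the other control pairs. The division of the control libraries was therefore not particular to the listed genes. Among the 14 genes highest in control replicate 3 were Atf4, Atf3, Atf5, Eif2s1, Mthfd2, Slc7a5, Slc3a2, Aars and Gars. Without control replicate 2 the median log2 fold change of the 34 genes was -0.0082, and without control replicate 3 it was 0.08.

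**Figure D4:**
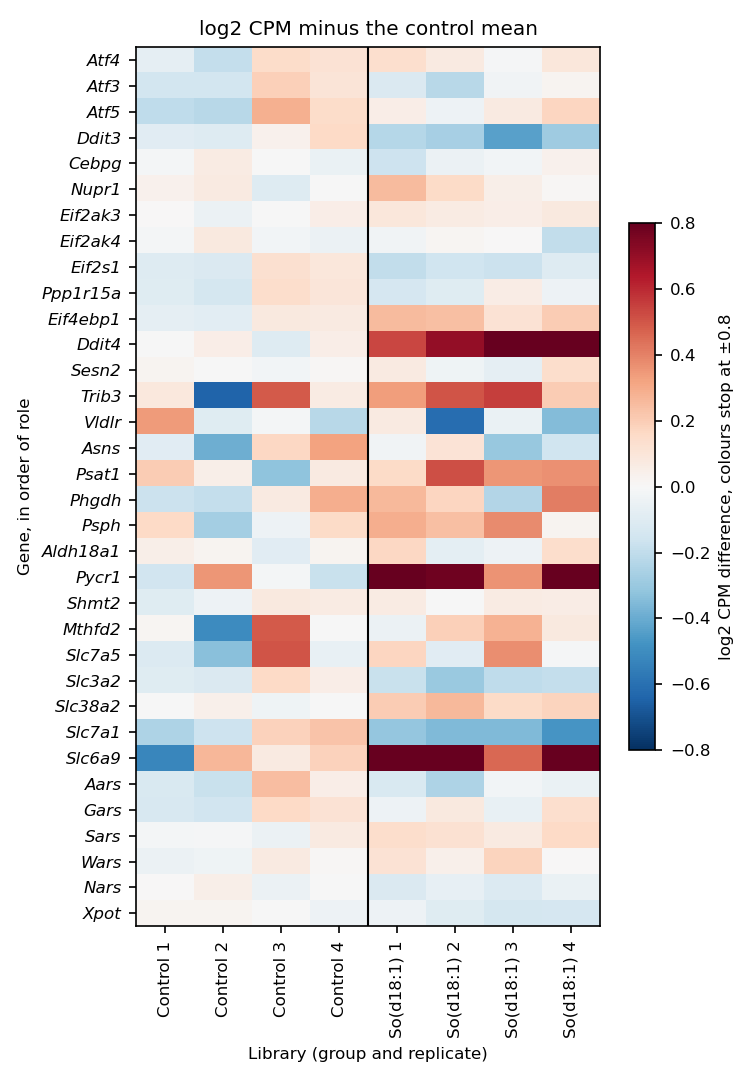
Difference of each library's log2 CPM from the control mean for the 34 genes tested, red for higher and blue for lower, with colours stopping at ±0.8 and the black line between the groups. Control replicates 1 and 2 are mostly blue and replicates 3 and 4 mostly red in the upper rows, and Ddit4, Pycr1 and Slc6a9 are red across the So(d18:1) libraries.

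Other genes of the same pathways were read from 7 further written lists, chosen with earlier results of these data known. Of all genes tested, 3.87% rose and 5.07% fell. Partners of the heavy chain Slc3a2 were in view among the other carriers, of which 4 of 16 tested fell and 0 rose. Their median log2 fold change was -0.12. The carrier Slc7a11, which rose, was not in this list but among the ATF4 targets. Slc7a8, the light chain LAT2, was at 340.3, 326.4, 384.6 and 365.9 CPM in control and at 276.4, 271.4, 297.7 and 284.1 CPM in So(d18:1) libraries. Slc7a7, the light chain y+LAT1, was at 38.8, 35.2, 41.2 and 39.6 CPM in control and at 27.9, 26.8, 32.2 and 28.8 CPM in So(d18:1) libraries. Both genes were lower in every So(d18:1) library than in any control library. Their log2 fold changes were -0.33 for Slc7a8 (SE 0.0503, edgeR adjusted p = 2.02e-04) and -0.42 for Slc7a7 (SE 0.0674, edgeR adjusted p = 3.16e-04), and both calls held with each library left out.

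Slc7a6, the related chain y+LAT2, named after its value was seen, spanned 10.5 to 12.6 CPM in control and 7.65 to 9.98 CPM in So(d18:1) libraries, with a log2 fold change of -0.32 (edgeR adjusted p = 0.0671). Slc7a11, the cystine and glutamate exchanger xCT, is a further partner of Slc3a2 and was listed with the ATF4 targets. It was at 3.08, 3.26, 4.81 and 3.3 CPM in control and at 5.1, 4.75, 5.73 and 5.63 CPM in So(d18:1) libraries. Control replicate 3 alone reached the So(d18:1) range. Slc7a11 rose with a log2 fold change of 0.55 (SE 0.153, edgeR adjusted p = 0.0278), a call lost without control replicate 1, 2 or 4 or So(d18:1) replicate 3 or 4 (edgeR adjusted p between 0.0608 and 0.0834). Per kilobase, the light chains in control libraries ranked Slc7a8 at 70.8 CPM per kb, Slc7a7 at 11.7, Slc7a6 at 2.44, Slc7a5 at 0.561 and Slc7a11 at 0.26 CPM per kb. The 2 with the highest levels were those that fell, but Slc7a6, at a lower level, differed by about as much as Slc7a8. Whether level bears on the difference was not tested.

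The other 2 carriers that fell were Slc7a2, the cationic amino acid carrier CAT2, with a log2 fold change of -0.36 (edgeR adjusted p = 0.0402), and Slc6a6, the taurine carrier, with -0.14 (edgeR adjusted p = 0.0238). The call of Slc7a2 held without control replicate 2 and was lost with each of the other 7 libraries left out (edgeR adjusted p between 0.0574 and 0.108), and that of Slc6a6 was lost without control replicate 1, 3 or 4 or So(d18:1) replicate 1 or 2 (edgeR adjusted p between 0.0506 and 0.0733).

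Of 22 other ATF4 targets, 16 were tested, 2 rose and 1 fell, with a median log2 fold change of 0.06. Gdf15, a stress-induced cytokine, was at 6.11, 3.74, 7.59 and 6.19 CPM in control and at 3.87, 2.99, 3.59 and 3.65 CPM in So(d18:1) libraries. Control replicate 2 alone lay within the range of the So(d18:1) libraries. Gdf15 fell with a log2 fold change of -0.74 (SE 0.18, edgeR adjusted p = 0.013), a call lost without So(d18:1) replicate 2 (-0.67, edgeR adjusted p = 0.0537). Bbc3, which encodes the death-promoting protein PUMA, rose with 0.23 (edgeR adjusted p = 0.0186), a call lost without So(d18:1) replicate 1 (edgeR adjusted p = 0.0624).

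Among 17 other regulators, Eif2b2, a subunit of the exchange factor that recharges eIF2, rose with a log2 fold change of 0.19 (edgeR adjusted p = 0.0419), a call that held without So(d18:1) replicate 3 and was lost with each of the other 7 libraries left out (edgeR adjusted p between 0.0549 and 0.119). Of 16 other serine, proline and folate enzymes tested, 1 rose and 2 fell. Aldh1l1, which oxidises formyl-tetrahydrofolate, rose with 0.29 (edgeR adjusted p = 0.0343). Mtr, methionine synthase, and Atic, which closes the purine ring, fell with -0.18 (edgeR adjusted p = 0.0128) and -0.23 (edgeR adjusted p = 0.038). The call of Mtr was lost without control replicate 1 (edgeR adjusted p = 0.0637). The calls of Aldh1l1 and Atic were each lost without control replicate 3 or 4 or So(d18:1) replicate 1, 2 or 4, with edgeR adjusted p up to 0.128 and 0.131.

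Of 18 other cytosolic synthetases, Kars for lysine rose with a log2 fold change of 0.21 (edgeR adjusted p = 0.0118), a call that held with each library left out. Of 17 mitochondrial synthetases, 0 passed edgeR's test. The unfolded protein response of the endoplasmic reticulum shares PERK with these genes, and of 14 other genes of it 13 were lower with So(d18:1) and 1 fell, with a median of -0.1. Without control replicate 3, 12 of the 14 were lower and the median was -0.05. The gene that fell was Hspa5, the chaperone BiP, which was at 432.9, 439.8, 533.3 and 484.2 CPM in control and at 371.8, 385.1, 441.8 and 406.2 CPM in So(d18:1) libraries. So(d18:1) replicate 3 reached above the lowest control libraries. Hspa5 had a log2 fold change of -0.24 (SE 0.0683, edgeR adjusted p = 0.047), a call lost without control replicate 3 or 4 or So(d18:1) replicate 1, 2 or 4 (edgeR adjusted p between 0.0688 and 0.141).

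**Figure D5:**
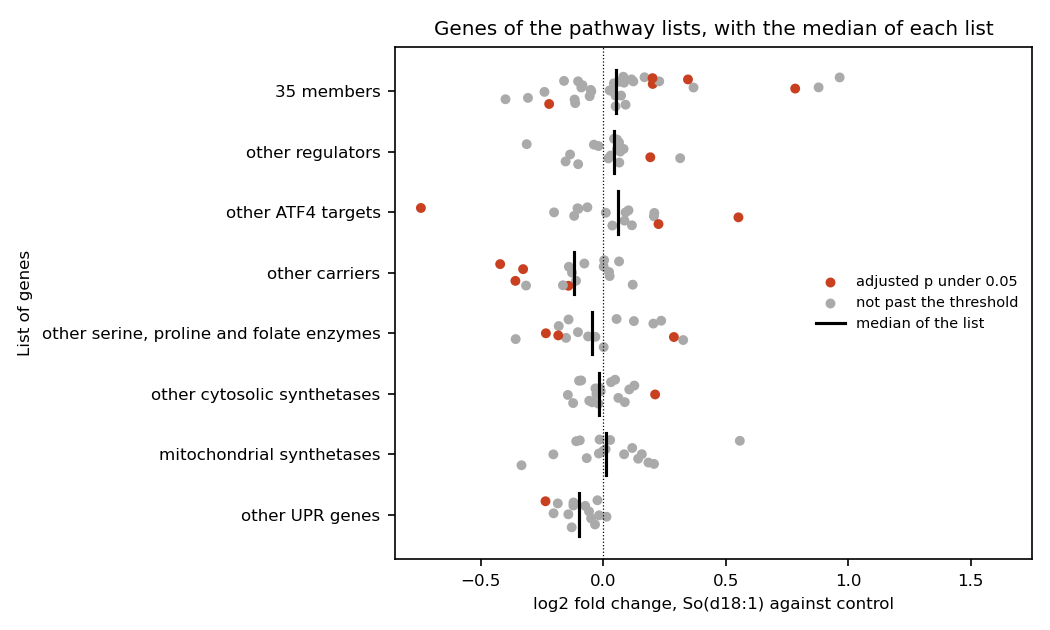
Log2 fold change of So(d18:1) against control libraries for the tested genes of the 35 and of the 7 other lists, one point per gene, red for an adjusted p under 0.05, with a black line at each list's median. Most points lie close to 0, the red points of the other carriers lie left of 0, and those of the other ATF4 targets lie on both sides.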

How the data were processed

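RNA with poly(A) from 8 BMDM libraries was sequenced. The authors deposited raw counts per Ensembl gene, made with Trim Galore 0.6.7, HISAT2 2.2.1 on mm10 and featureCounts 2.0.1. The strand setting and the treatment of multiply mapping reads are not given in the sources used here. Symbols came from GENCODE M21, which matched 52081 of 55357 identifiers, and the rest held 0.169% to 0.325% of counts. Total counts had a median of 22926576. The 4 libraries per group limit the precision (smallest exact permutation p 0.0286), as do low counts for Chac1, Pycr1 and Slc6a9.

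Counts were filtered by filterByExpr and scaled by TMM. They were fitted in edgeR 4.0.16 (R 4.3.3, limma 3.58.1) with robust quasi-likelihood dispersion and Benjamini-Hochberg adjustment. A prior count of 2 was set for log2 CPM only, not for the fitted log2 fold changes. Intervals are 95% and unadjusted. Alternatives were other scalings, filters and tests (DESeq2 1.42.0 among them), the replicate block and each library left out. The scripts were tested on simulated data.

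All 35 genes are named, with genes of the 7 further lists at an adjusted p under 0.05. Members and lists were chosen with earlier results of these data known, and the ACGTG search, the ranks of libraries and the choice of Slc7a6 followed sight of the values. Shared sequence was measured on GENCODE transcripts, as the percent of words of 50 bases that another gene also holds. One promoter sequence is not reported here.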

Additional observations from a re-analysis of the deposited data

Results flagged for a closer look

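Among 70 groups of 4 libraries examined, 35 genes in each condition, one library stood apart in 1, where chance gives about 1 in 20. This was Shmt2 in So(d18:1) libraries, at a log2 CPM of 4.41 in replicate 2 against 4.47 to 4.48 in the others. The gap to the nearest library was 0.904 of the range of the group, and the range itself was narrow. No cause was tested.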

How the results depend on the processing

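The 5 genes called became 3 under upper quartile scaling, where Psat1 and Eif4ebp1 missed the threshold (edgeR adjusted p = 0.0515 and 0.0602), and 3 under an unadjusted p under 0.05 with a fold change of at least 1.5, by which 564 of all genes were called in place of 1298. Upper quartile scaling also moved the share of higher calls among all genes from 43.3% to 34.9%. Eif4ebp1 was also lost under DESeq2's size factors, with at least 10 counts in every library and under limma-voom. Other scalings, filters and tests gave 4 or 5 of the genes. Ddit4 and Slc38a2 kept their calls in every fit with adjusted p-values.

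With one library left out, between 2 genes (without control replicate 4 or So(d18:1) replicate 2) and 4 were called, and between 815 (without So(d18:1) replicate 2) and 1370 (without control replicate 2) of all genes. The median log2 fold change of the 34 genes lay between -0.0082 and 0.077. The direction turned for Atf5 (-0.024 to 0.15), Gars (-0.024 to 0.082), Mthfd2 (-0.059 to 0.29), Slc7a5 (-0.027 to 0.29), Asns (-0.23 to 0.0047) and Sesn2 (-0.0094 to 0.066), none of which was called. The cause of these changes was not tested. Counts of 1 to 21 per library limit Chac1, Pycr1 and Slc6a9.

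With the replicate number as a block, 5 genes were called, and 1784 of all genes, against 5 and 1298 without it. The labels do not say that the numbers mark a shared mouse or day, so the block was kept as an alternative. Same-numbered libraries deviated together with correlations of -0.0035, 0.1, 0.033 and 0.0091, and not every library correlated best with its own number.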
